A study of Mus musculus with 12 samples.

Results

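Neurofilaments are the intermediate filaments of axons, and 4 genes encode the subunits that build them in the adult cortex: Nefl, Nefm, Nefh and Ina. These were taken by name, 4 of the 48526 genes listed in each of the deposited tables, and all 4 were measured in all 12 libraries. RNA came from the cortex of untreated mice on a C57Bl/6 background. The 4 groups were non-transgenic controls at 3 months, mice carrying the TAU58/2 transgene at 3 months, non-transgenic controls at 10 months, and TAU58/2 mice at 10 months, with 3 biological replicates in each. As background, the TAU58/2 line expresses a mutant human tau linked to frontotemporal dementia from a Thy1 promoter, which is active in neurons. The design asks what differs with the transgene at each age, and what differs with age in each genotype.

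A neurofilament is assembled from the light subunit (Nefl), which forms the core, together with the medium (Nefm) and heavy (Nefh) subunits, whose long tails project from the filament, and alpha-internexin (Ina), which co-assembles with them in the central nervous system. Filaments are made in the cell body and carried slowly along the axon, where they set its calibre, and the tails of the medium and heavy subunits are phosphorylated there at Lys-Ser-Pro repeats. Neurofilaments accumulate in several neurodegenerative diseases, and light chain protein released into blood and cerebrospinal fluid is used as a marker of axonal damage. RNA levels, which are what was measured here, say nothing of phosphorylation, transport or released protein.

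The 4 genes differ in the tail that their coding sequence specifies. In the GRCm38 build with the GENCODE annotation, Nefh (ENSMUSG00000020396) has 4 exons on the minus strand of chromosome 11, from 4938754 to 4948064, and its coding sequence of 1090 codons holds 51 runs of codons for Lys-Ser-Pro. Nefm (ENSMUSG00000022054) has 848 codons with 4 such runs, while Nefl (ENSMUSG00000022055) with 543 codons and Ina (ENSMUSG00000034336) with 501 codons have 0. The following 180 coding bases of Nefh are shown because they hold the repeat that sets the heavy subunit apart. They lie in exon 4 of 4 at chr11:4940884-4941063, minus strand, printed in the direction of the gene, and capitals mark 10 runs of Lys-Ser-Pro codons.
Nefh: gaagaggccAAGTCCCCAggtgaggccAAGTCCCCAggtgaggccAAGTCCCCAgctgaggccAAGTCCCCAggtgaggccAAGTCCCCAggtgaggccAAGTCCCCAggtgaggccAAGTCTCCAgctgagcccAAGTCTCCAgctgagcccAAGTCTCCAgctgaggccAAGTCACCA

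The repeat bears on how fragments can be placed. Of the 31-base words read at every position along the Nefh transcript, 8.63% are words that occur more than once in it. Of its distinct words, 0 occur in another gene's exons. Nefl and Nefm are neighbours on chromosome 14. Nefl runs from 68083863 to 68089095 on the plus strand, and lies wholly inside the span of Nefm, which runs from 68082590 to 68124846 on the minus strand. Of 2 annotated Nefm transcripts the long one ends in an exon that covers 1108 exonic bases of Nefl on the opposite strand, so that 1078 of the 3350 words of Nefl (32.2%) also occur, antisense, in Nefm. Ina, on chromosome 19 from 47014698 to 47025327 on the plus strand, shares 456 exonic bases at its start with Nt5c2, which reads the other way. Libraries were strand-specific, but whether the counting used the strand is not given in the sources used here, so levels of Nefl and Nefm, and of Ina and Nt5c2, may share fragments.

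**Figure D1:**
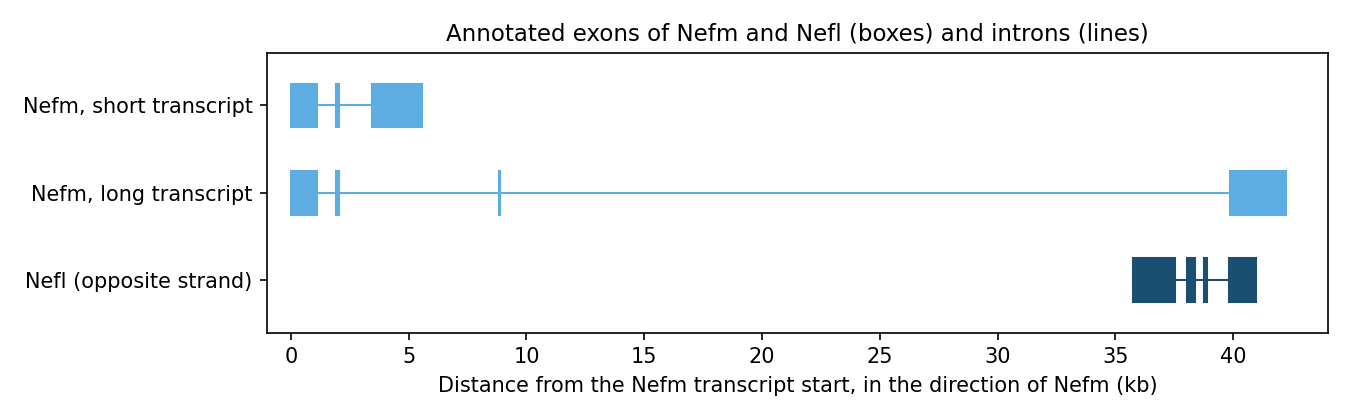
Annotated exons (boxes) and introns (lines) of both Nefm transcripts and of Nefl, by distance in kb from the Nefm transcript start in the direction of Nefm. The first exon of Nefl, at the right, overlaps the last exon of the long Nefm transcript by 1108 bases.

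Values are FPKM, fragments scaled by transcript length and by the library's mapped fragments, as the authors deposited them. Levels of genes with 1 annotated transcript, as Nefl, Nefh and Ina, can thus be set side by side per length. Nefm has 2, and how their values were combined is not given in the sources used here. Its level, place in the order, share and ratio to Nefl depend on that rule. Libraries summed to 125933 to 158077 FPKM and listed 12828 to 13914 genes above 0. Depth relative to 10-month control 1 was estimated from steps in low values. Of the genes low in both libraries, only 7.88% to 11.5% lay on the step used. By this rough estimate the others had 1.07 to 1.37 times the depth of 10-month control 1, and the absolute depth is unknown. Single libraries held 91 to 226 values far under the rest, less than the gene's median divided by 8, among 4390 genes whose median reached 5 FPKM. The 10-month library labelled TAU58/2 1 stood apart with 11228 FPKM of Gh, the growth hormone gene of the pituitary, against at most 37.4 FPKM in the others. Ttr, a choroid plexus gene, was at 728 FPKM in 3-month control 1, 439 FPKM in that library and 300 FPKM in 3-month TAU58/2 3. The neuronal genes Snap25, at 131 to 344 FPKM, and Rbfox3, at 8.93 to 12.9 FPKM, were present in all 12 libraries.

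The labels were checked with Mapt, the mouse tau gene, and Thy1, which can take up fragments of a transgene that carries tau behind a Thy1 promoter. The 3-month TAU58/2 libraries held 47.6, 47.5 and 43.3 FPKM of Mapt and 441, 417 and 410 FPKM of Thy1, and the controls 6.64, 12.0 and 7.47 FPKM of Mapt and 114, 105 and 140 FPKM of Thy1. At 10 months the values for Mapt were 42.6, 12.4 and 3.31 FPKM under the transgenic label and 42.7, 8.13 and 9.08 FPKM under the control label. Those for Thy1 were 172, 114 and 159 FPKM under the former and 115, 314 and 176 FPKM under the latter. Both genes thus separated the labelled groups at 3 months, without overlap, and not at 10 months. Such separation upward at 3 months was found for 4.44% of all genes tested. Neither Mapt nor Thy1 passed the limma adjusted p threshold of 0.05 there. Mapt also lay in 2 ranges, 3.31 to 12.4 FPKM in 7 libraries and 42.6 to 47.6 FPKM in 5. A gap as large was found in 19.5% of those 4390 genes. At 10 months control and TAU58/2 are therefore the labels of libraries, not a genotype that Mapt and Thy1 bear out. This holds in every name, caption and direction given here. The 2 ages were also deposited in 2 tables, and age and table cannot be told apart.

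Nefl, the light chain that forms the filament core, was the most abundant subunit in 12 of 12 libraries. In control libraries 1, 2 and 3 it was at 81.2, 79.5 and 95.6 FPKM at 3 months, and at 164, 82.3 and 88.2 FPKM at 10 months. Under the transgenic label the 3-month libraries gave 127, 126 and 118 FPKM and the 10-month ones 83.5, 117 and 138 FPKM at 10 months. All 3 transgenic libraries lay above all 3 controls at 3 months, while at 10 months the groups overlapped, with the highest and the lowest library both labelled control. Group means were 85.4 ± 8.87, 123 ± 4.76, 112 ± 45.6 and 113 ± 27.6 FPKM (SD, n = 3) in 3-month controls, 3-month TAU58/2, and the 10-month libraries labelled control and labelled TAU58/2.

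Nefm, the medium chain with a phosphorylated side arm, was below the light chain in 12 of 12 libraries. Its values in controls were 24.8, 25.1 and 36.6 FPKM at 3 months and 50.8, 31.03 and 14.2 FPKM at 10 months. Libraries labelled transgenic gave 24.1, 31.2 and 24.1 FPKM at 3 months and 24.9, 26.9 and 28.9 FPKM at 10 months. The 10-month libraries labelled control held both the highest and the lowest value, the groups overlapped at both ages, and the 10-month libraries labelled transgenic were the closest together. Means in the same order of groups were 28.8 ± 6.76, 26.5 ± 4.10, 32.0 ± 18.3 and 26.9 ± 2.00 FPKM (SD, n = 3).

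Nefh, the heavy chain with the long repeat printed above, was the least abundant of the 3 neurofilament chains proper in 12 of 12 libraries. In controls it was at 12.2, 2.83 and 12.2 FPKM at 3 months and at 18.2, 11.7 and 11.5 FPKM at 10 months. Those labelled transgenic held 9.93, 14.2 and 9.68 FPKM at 3 months and 5.89, 11.8 and 13.0 FPKM at 10 months. Groups overlapped at both ages, and 1 library, 3-month control 2, stood far below the rest of its group. Means were 9.06 ± 5.40, 11.3 ± 2.56, 13.8 ± 3.80 and 10.2 ± 3.82 FPKM (SD, n = 3).

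Ina, alpha-internexin, was the most uneven member. In controls it was at 1.87, 35.7 and 31.3 FPKM at 3 months and at 2.08, 55.6 and 7.40 FPKM at 10 months. Under the transgenic label it was at 48.6, 50.02 and 43.5 FPKM at 3 months and at 3.17, 57.1 and 55.2 FPKM at 10 months. The values lay in 2 ranges, 1.87 to 7.40 FPKM in 4 libraries and 31.3 to 57.1 FPKM in the other 8, a gap of 4.23-fold. Of the 4 low libraries 3 were labelled control, and group means were 22.9 ± 18.4, 47.4 ± 3.41, 21.7 ± 29.5 and 38.5 ± 30.6 FPKM (SD, n = 3).

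**Figure D2:**
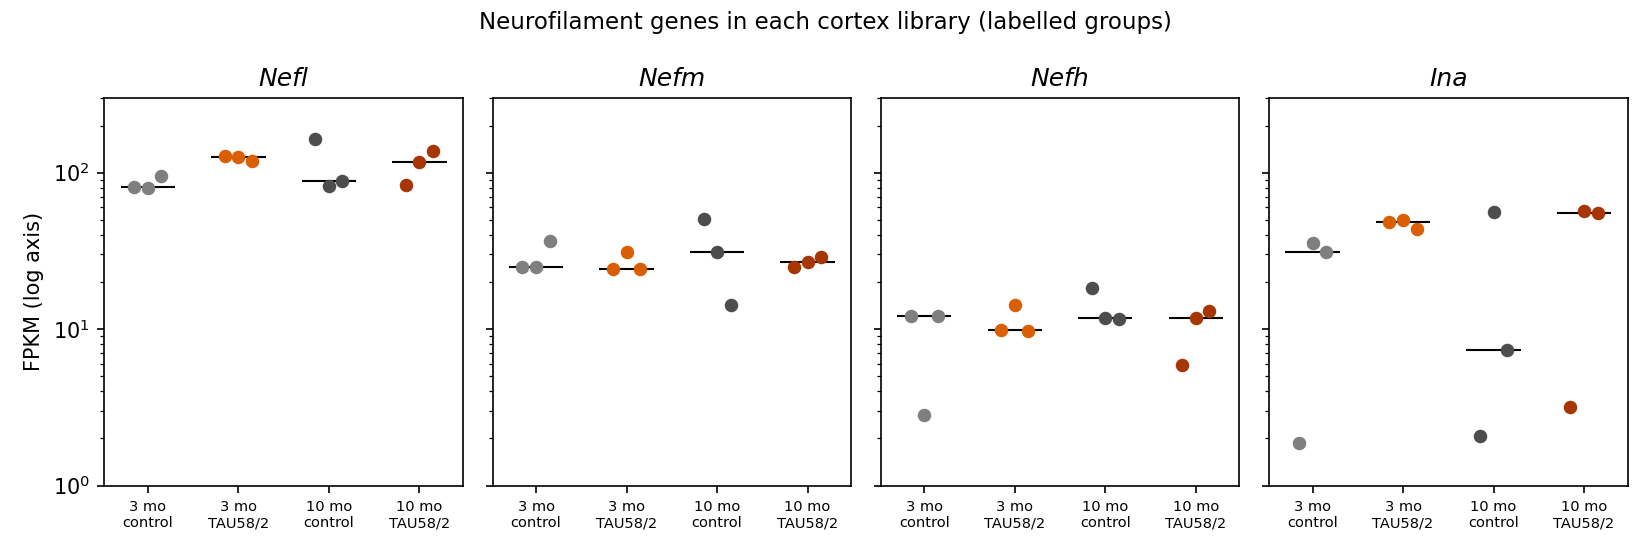
FPKM on a log axis of Nefl, Nefm, Nefh and Ina in each library, by labelled group; points are libraries and bars are group medians. Nefl lay between 79.5 and 164 FPKM throughout, whereas Ina fell into a low range up to 7.40 FPKM and a high range from 31.3 FPKM.

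Among the members the coefficient of variation over 12 libraries was 25.3% for Nefl, 30.9% for Nefm, 35.0% for Nefh and 69.8% for Ina. The highest library exceeded the lowest 2.07-fold for Nefl, 3.56-fold for Nefm, 6.43-fold for Nefh and 30.6-fold for Ina. Within groups on the log2 scale, the residual SD was 0.34 for Nefl, at percentile 20.9 of the genes tested, and 2.05 for Ina, at percentile 86.8. Nefm and Nefh lay between them, with residual SDs of 0.50 and 0.71 at percentiles 35.7 and 49.0.

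The low Ina values were set against what else those 4 libraries held. Nt5c2, which overlaps the start of Ina, was at 3.46 to 5.47 FPKM in all 12 libraries. The low libraries included the 10-month library labelled TAU58/2 1, with high Gh and Ttr, and 3-month control 1, with high Ttr. The other low libraries, labelled 10-month control 1 and 10-month control 3, held 14.8 and 10.5 FPKM of Gh and 29.3 and 15.1 FPKM of Ttr. In 3-month controls, 3-month TAU58/2, and the 10-month libraries labelled control and labelled TAU58/2, the 5 pituitary markers summed to 0.960 to 7.38, 0 to 53.8, 8.08 to 19.4 and 0.930 to 13469 FPKM. The 4 choroid plexus markers summed to 37.4 to 788, 36.8 to 351, 47.3 to 74.0 and 75.7 to 496 FPKM in the same groups. Their part in the Ina values was not tested. Snap25 was at 286, 335, 302 and 339 FPKM in the low libraries and at 131 to 344 FPKM in the other 8. A gap as large as that of Ina was found in 750 of those 4390 genes (17.1%), and 167 (3.804%) had as many libraries under their median divided by 4. In bulk tissue, fewer cells of a type and less RNA per cell cannot be told apart.

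In each library the subunit levels had an order. The range of Nefl within a group never met that of another subunit, in any of the 4 groups. Ranges of Nefm and Nefh were also apart except in the 10-month libraries labelled control, where the low value of Nefm in control 3 reached those of Nefh. Ina ranked below Nefl and above Nefm in 7 libraries, between Nefm and Nefh in 1 and last in 4, and its range was apart from those of Nefm and Nefh only in 3-month TAU58/2. The order Nefl, Nefm, Nefh was thus the same in 12 of 12 libraries and the place of Ina was not.

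Summed over the 4 subunits, neurofilament RNA came to 117 to 235 FPKM per library. Nefl made up 60.7 ± 8.15% of the sum, Nefm 16.1 ± 4.13%, Nefh 6.25 ± 2.20% and Ina 16.9 ± 10.9% (mean and SD over 12 libraries). The share of Ina spanned 0.883% to 30.8%, and was 22.3% to 23.2% in the 3 libraries labelled transgenic at 3 months. The sum was 120, 143 and 176 FPKM in 3-month controls and 210, 221 and 195 FPKM in 3-month TAU58/2, a sum that holds Nefl and Ina, the members whose own 3-month values were apart, and only 1.87 FPKM of Ina in 3-month control 1. At 10 months it was 235, 181 and 121 FPKM in controls and 117, 213 and 235 FPKM in those labelled transgenic, and the groups overlapped.

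**Figure D3:**
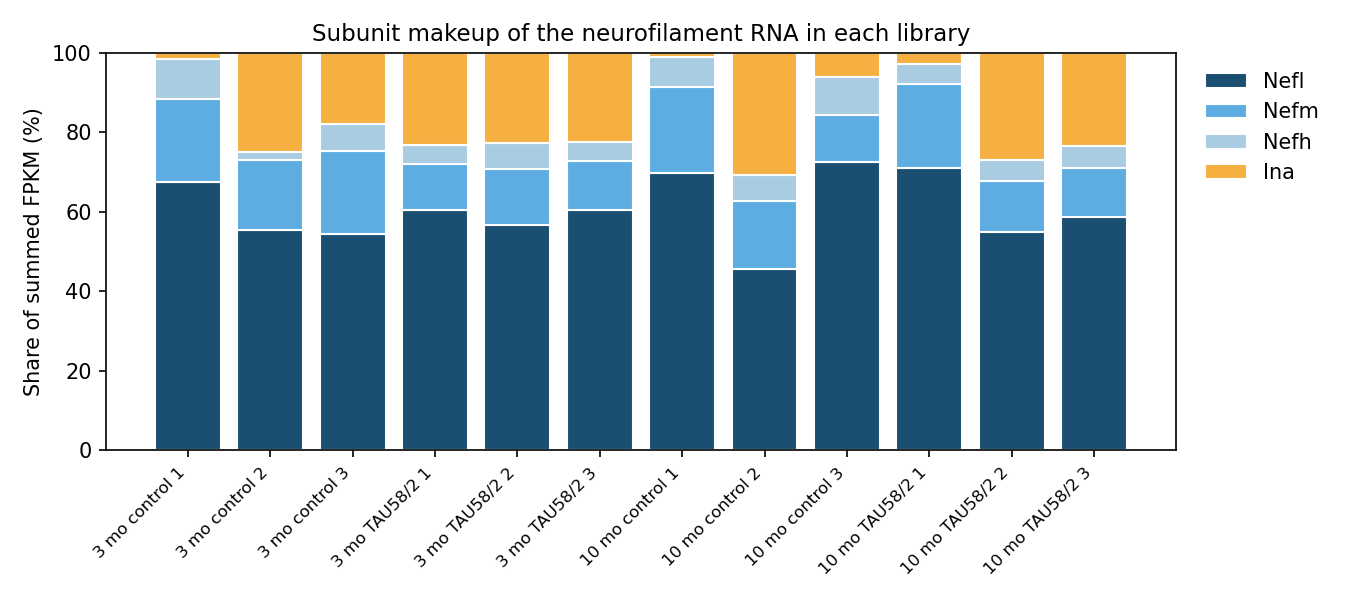
Share of each subunit, in percent, of the summed FPKM of Nefl, Nefm, Nefh and Ina in each library. Nefl is the largest block in all 12 libraries, and the Ina block ranges from 0.883% to 30.8%.

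At 3 months, 0 of the 4 genes passed the threshold of 0.05 for the adjusted p between libraries labelled transgenic and control, where 0.0406% of the 9846 genes tested did (4 genes). At an unadjusted limma p under 0.05 it was also 0 of 4, against 3.39% of genes. Differences are log2 fold changes on log2(FPKM + 0.1), transgenic over control, from limma fitted to all genes. Nefl was higher by 0.54 (SE 0.27, 95% interval -0.07 to 1.14, limma adjusted p = 1), a fold of 1.45, with 3 of 3 transgenic libraries above every control. Ina differed by 1.86 (SE 1.50, interval -1.49 to 5.22, limma adjusted p = 1), also without overlap of the groups. The interval of Ina is wide enough to hold large differences in both directions.

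Nefh had a difference of 0.56 (SE 0.54, interval -0.65 to 1.76) and Nefm one of -0.11 (SE 0.39, interval -0.97 to 0.75), each with a limma adjusted p of 1 and with overlapping groups. Groups without overlap were found, transgenic higher, for 2 of 4 members and 4.44% of all genes tested, and transgenic lower for 0 of 4 members and 3.54% of genes. The exact two-sided permutation p was 0.1 for Nefl and for Ina, the smallest that 3 against 3 libraries allow, 0.5 for Nefm and 0.8 for Nefh. The median difference of the 4 members was 0.55, beside 0.02 over all genes tested. Without 3-month control 2 that of Nefh turned to -0.13, without 3-month control 3 that of Nefm turned to 0.07, and without 3-month control 1 that of Ina was 0.50. Nefl stayed between 0.49 and 0.62 when any library was left out.

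The authors' deposited table gives Nefl at 3 months a fold change of 1.46 with a p of 0.0140 and a q of 0.904. In the authors' deposited table the 3-month fold changes of the other members are 0.917 for Nefm, 1.68 for Nefh and 2.27 for Ina, with q-values of 0.929, 0.904 and 0.904. Both the limma fit and that table thus put Nefl higher in transgenic libraries by a similar fold without passing an adjusted threshold.

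At 10 months, again 0 of 4 passed, where 0.0102% of the genes tested did (1 gene), and at an unadjusted limma p under 0.05 it was 0 of 4 against 4.4%. Nefl differed by 0.06 (SE 0.27, interval -0.54 to 0.67, limma adjusted p = 1), Nefm by -0.07 (SE 0.39, interval -0.93 to 0.79, adjusted p = 1), and Nefh by -0.48 (SE 0.54, interval -1.68 to 0.73, adjusted p = 0.969). Ina differed by 1.17 (SE 1.50, interval -2.18 to 4.52, limma adjusted p = 0.972). The intervals include 0 for all 4 members and are narrowest for Nefl. No member had groups without overlap, which 4.37% of all genes had with the transgenic group higher and 3.89% with it lower.

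The exact permutation p at 10 months was 0.9 for Nefl, 0.8 for Nefm, and 0.6 for Nefh and for Ina. The median of the 4 differences was -0.01, beside 0.01 over all genes. Single libraries set the direction of both neighbours on chromosome 14: Nefl went from -0.12 without the library labelled control 2 to 0.38 without that labelled control 1, and Nefm from -0.56 without that labelled control 3 to 0.35 without that labelled control 1. Nefh remained negative, from -0.69 to -0.12, and Ina positive, from 0.09 without that labelled control 1 to 2.54 without that labelled TAU58/2 1. With libraries weighted by limma, however, the Ina difference was -0.12. In the authors' deposited table the 10-month fold changes are 0.977 for Nefl, 0.966 for Nefm, 0.670 for Nefh and 1.47 for Ina, with q-values of 0.854 to 0.992.

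**Figure D4:**
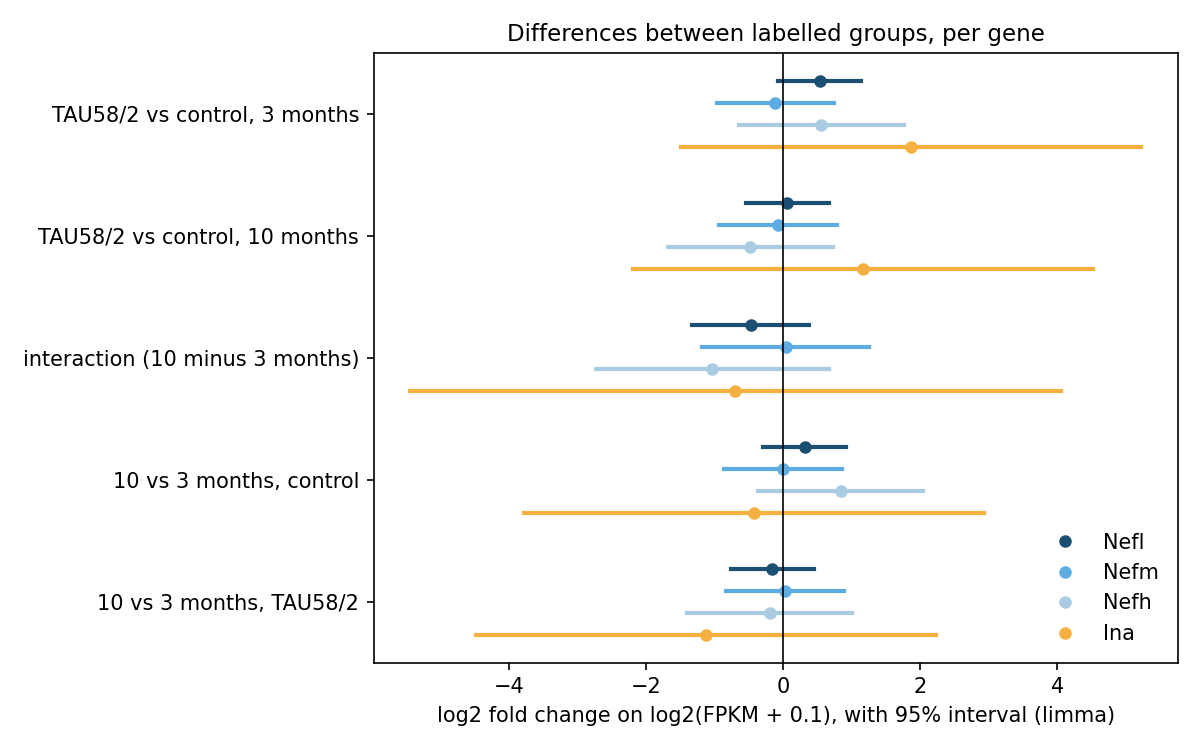
Log2 fold changes on log2(FPKM + 0.1) with 95% intervals from limma for the 4 members in 5 comparisons; the interaction is the genotype difference at 10 months minus that at 3 months. Every interval includes 0, and those of Ina are the widest.

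Whether the genotype difference itself changed with age was tested as an interaction, the 10-month difference minus the 3-month one. It was -0.47 (SE 0.38) for Nefl, 0.04 (SE 0.55) for Nefm, -1.03 (SE 0.76) for Nefh and -0.69 (SE 2.13) for Ina, with limma adjusted p from 0.987 to 1.00. Leaving out 1 library moved it for Nefl from -0.66, without the 10-month library labelled control 2, to -0.16, without that labelled control 1, and for Nefh from -1.38, without 3-month control 3, to -0.345, without 3-month control 2. None of the 4 passed, where 0.0508% of genes did, nor at an unadjusted p under 0.05, where 3.32% did, so the separation of Nefl at 3 months and its overlap at 10 months are not shown to differ. Averaged over both ages, the genotype difference was 0.30 (SE 0.19) for Nefl, -0.09 (SE 0.27) for Nefm, 0.04 (SE 0.38) for Nefh and 1.52 (SE 1.06) for Ina, with limma adjusted p of at least 0.975. Again 0 of 4 passed, where 0.0508% of genes did, and 0 of 4 at an unadjusted p under 0.05, where 3.75% did.

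Between 3 and 10 months, 0 of 4 members passed in controls, where 0.0305% of genes did, and 0 of 4 in those labelled transgenic, where 0.0203% did. At an unadjusted limma p under 0.05 it was 0 of 4 in both, against 4.19% and 4.31% of genes. In controls the difference, 10 over 3 months, was 0.32 (SE 0.27) for Nefl, -0.01 (SE 0.39) for Nefm, 0.84 (SE 0.54) for Nefh and -0.43 (SE 1.50) for Ina. Without the library labelled 10-month control 1 that of Nefl was 0.00091 and without 10-month control 2 it was 0.50, while that of Nefh was 0.15 without 3-month control 2 and 1.18 without 3-month control 3. For Nefh, the 10-month libraries labelled control were at 11.5 to 18.2 FPKM and the 3-month controls at 2.83 to 12.2 FPKM, so the groups overlapped. In transgenic libraries it was -0.16 (SE 0.27) for Nefl, 0.03 (SE 0.39) for Nefm, -0.20 (SE 0.54) for Nefh and -1.12 (SE 1.50) for Ina. No member's age groups were apart in either genotype, which held for 6.8% of genes upward and 3.25% downward in controls, and for 5.78% and 3.65% in transgenics. Averaged over genotypes the age differences were 0.08, 0.01, 0.32 and -0.77 for Nefl, Nefm, Nefh and Ina, where 0 of 4 passed against 0.0813% of genes, and 0 of 4 against 4.4% at an unadjusted p under 0.05.

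The stoichiometry of the chains was described by ratios within a library, which do not depend on its total. Nefm over Nefl was 0.306, 0.315 and 0.383 in 3-month controls and 0.190, 0.248 and 0.204 in 3-month TAU58/2. The means were 0.335 ± 0.0422 and 0.214 ± 0.0306 (SD, n = 3). These groups did not overlap, but over all other genes tested 32.1% had a ratio to Nefl that was likewise lower in every TAU58/2 library, and 1.04% one that was higher in all, so the separation is not particular to Nefm. At 10 months the ratio was 0.309, 0.377 and 0.162 in controls and 0.297, 0.230 and 0.209 in those labelled transgenic, and the groups overlapped. The Nefm of the 3-month transgenic libraries, at 24.1 to 31.2 FPKM, itself overlapped that of controls.

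Nefh over Nefl was 0.150, 0.0356 and 0.128 in 3-month controls and 0.0783, 0.113 and 0.0820 in 3-month TAU58/2, which overlapped through 3-month control 2. At 10 months it was 0.111, 0.143 and 0.131 in controls and 0.0705, 0.1004 and 0.0943 in libraries labelled transgenic. These labelled groups did not overlap, which held for 2.2% of all other genes tested with the ratio to Nefl lower and for 2.03% with it higher. These ratios are descriptions chosen after the values were seen, with no test, and Nefl and Nefm may share fragments. The ratio of Nefm to Nefl also depends on how the Nefm transcripts were combined, which is not given.

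**Figure D5:**
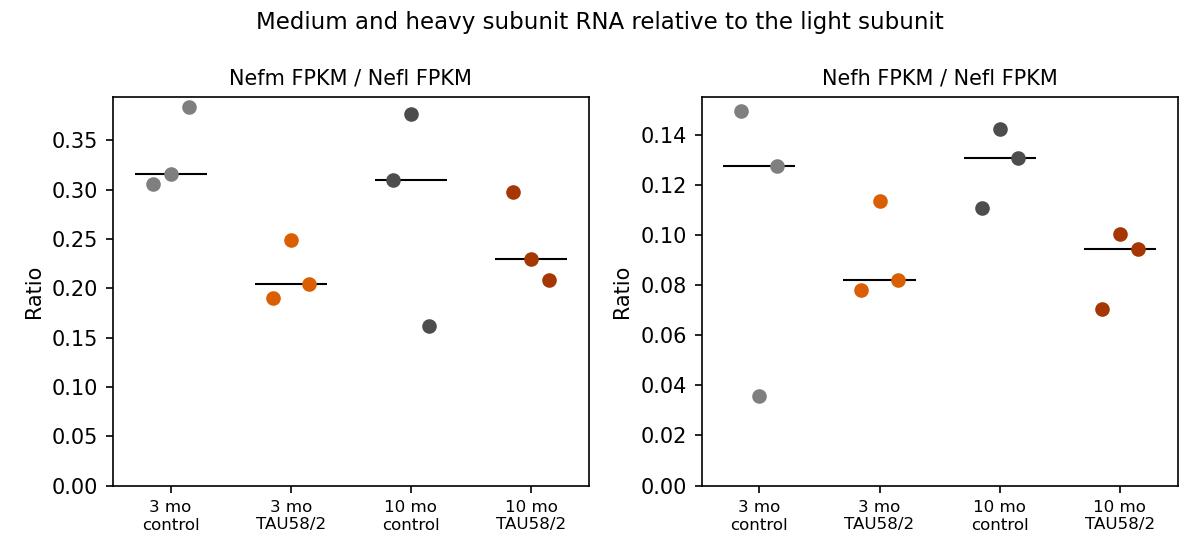
Ratio of Nefm FPKM to Nefl FPKM (left) and of Nefh FPKM to Nefl FPKM (right) per library, by labelled group; points are libraries and bars are group medians. The Nefm ratio is 0.190 to 0.248 in 3-month TAU58/2 and 0.306 to 0.383 in 3-month controls.

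The members were also compared with each other over libraries on the log2 scale, in 6 pairs adjusted together. Nefl and Nefh had a Pearson r of 0.58 over 12 libraries (permutation p = 0.0338, adjusted p = 0.203) and a Spearman rho of 0.57 (permutation p = 0.0591, adjusted p = 0.177). Without the 2 libraries farthest from the median of Nefl, r was 0.33. It was 0.52 within the 3-month libraries and 0.73 within the 10-month ones. Nefl and Nefm had an r of 0.49 (permutation p = 0.0991, adjusted p = 0.297) and a rho of 0.28 (permutation p = 0.378, adjusted p = 0.642), with r of 0.20 without the 2 farthest libraries, 0.03 within 3 months and 0.66 within 10 months. That relation thus rests largely on the 10-month libraries and on the extreme ones, among them the library labelled 10-month control 1, which held the highest Nefl, Nefm and Nefh of all.

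Nefm and Nefh had an r of 0.35 (permutation p = 0.230, adjusted p = 0.345) and a rho of 0.69 (permutation p = 0.0154, adjusted p = 0.0925). Without the 2 farthest libraries r was 0.46, and within ages it was 0.39 and 0.48. For scale, over 7334 tested genes above 0 in all libraries, r with Nefl had a median of 0.08 and ran from -0.50 to 0.57 between its 5th and 95th percentiles. Because Ina lies in 2 separate ranges, its correlations were taken over its 8 upper libraries only. They were 0.47 with Nefl (permutation p = 0.228), -0.22 with Nefm (permutation p = 0.570) and 0.48 with Nefh (permutation p = 0.343), with adjusted p of 0.345, 0.570 and 0.412. Spearman rho was 0.24, 0.02 and 0.33 (permutation p = 0.582, 0.977 and 0.428, adjusted p = 0.699, 0.977 and 0.642). Leaving out the 2 farthest of the 8 moved the r values to 0.85, 0.66 and 0.02, so that only the one with Nefm changed sign. No pair passed the adjusted threshold.

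The genes whose log2 values ran most like each member over the 12 libraries were chosen by Pearson r, as a description. For Nefl these were Mrpl37 (0.86), Atp6v1c1 (0.86) and Cmc1 (0.85), and for Nefm they were Fgfr1op2 (0.86), Dtnbp1 (0.85) and Osbpl1a (0.83). Nefh ran most like Vamp3 (0.93), Btbd10 (0.89) and Vdac3 (0.88), and Ina most like Pdcd4 (0.82), Agtrap (0.81) and Ttyh1 (0.80). For Ina these r span both of its ranges, unlike its correlations above, which were taken over its upper libraries only. The members themselves and predicted genes were left out of this choice. Between members the highest r over the 12 libraries was 0.58, for Nefl and Nefh, below every r named here.

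The remaining genes of intermediate filaments were taken as a list of 9, of which 7 were tested and 0 passed at either age. Of all genes tested, 0.0406% passed at 3 months and 0.0102% at 10 months. A count of 0 is therefore not particular to this list or to those that follow. The list had a median log2 difference of 0.50 at 3 months and -0.04 at 10 months. Peripherin (Prph), which joins neurofilaments in peripheral neurons, was at 0 to 1.34 FPKM. Gfap, the astrocyte filament, was at 19.8 to 34.8 FPKM, with a difference of -0.01 (SE 0.22) at 3 months and 0.31 (SE 0.22) at 10 months. Vimentin (Vim) was at 3.85 to 7.26 FPKM and nestin (Nes), the filament of neural progenitors, at 0 to 2.04 FPKM. The astrocyte and progenitor filaments were thus all below Nefl in every library.

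Of 14 genes for neurofilament transport, crosslinking and turnover, 10 were tested and 0 passed. At 3 and 10 months 0.0406% and 0.0102% of all genes did, and the list's medians were 0.09 and -0.16. Kinesin heavy chains carry neurofilaments outward. Kif5c was steady at 96.2 to 121 FPKM, Kif5b was at 11.3 to 26.6 FPKM, and Kif5a was at 340 to 536 FPKM in 11 libraries and listed at 0 in 3-month control 3. The kinesin light chain Klc1 was at 51.9 to 94.5 FPKM in 10 libraries and at 4.55 and 3.95 FPKM in the 10-month libraries labelled control 1 and TAU58/2 3. Values far below the rest thus occurred for 2 of these 4 motor genes, in fewer libraries than for Ina. Of 4390 genes whose median reached 5 FPKM, 1102 (25.1%) had at least 1 library under their median divided by 4. Such values are therefore not particular to motor genes.

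Of 16 genes for kinases and phosphatases that act on neurofilament tails, 15 were tested and 0 passed. At 3 and 10 months 0.0406% and 0.0102% of all genes did, and the list's medians were 0.07 and -0.07. Cdk5, a kinase of Lys-Ser-Pro sites, was listed at no more than 0.05 FPKM in any library and was not tested. Its activators Cdk5r1 and Cdk5r2 ranged from 1.87 to 59.1 FPKM and from 0 to 234 FPKM, and the kinase Gsk3a from 43.6 to 69.0 FPKM. Gsk3a had differences of 0.15 (SE 0.18) and 0.14 (SE 0.18) at 3 and 10 months. The 17 genes of the axonal cytoskeleton, 16 tested, had 0 past the threshold and medians of -0.11 and -0.13. Among them the spectrin Sptan1 was at 24.3 to 71.6 FPKM in 10 libraries and at 0.03 and 0.02 FPKM in the other 2, Sptbn1 was at 11.3 to 39.1 FPKM, Sptbn4 at 6.68 to 14.3 FPKM, and the ankyrin Ank2 at 0.43 to 2.00 FPKM.

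Neurofilament levels were read beside the neurons that carry them. Of 8 neuronal markers tested, 0 passed at either age, with medians of -0.13 at 3 months and -0.08 at 10 months. Their summed level was 781 to 1027 FPKM in 3-month controls, 798 to 1171 FPKM in 3-month TAU58/2, 838 to 1003 FPKM in the 10-month libraries labelled control and 785 to 1389 FPKM in those labelled TAU58/2, with 0 markers absent from all libraries. The ranges of the 2 groups overlapped at both ages. Among the named markers, Syt1 was at 15.6 to 74.3 FPKM and Eno2 at 48.9 to 145 FPKM. Of 9 markers of large projection and fast-spiking neurons, which hold much neurofilament, 7 were tested and 0 passed, with medians of -0.12 and 0.44. Pvalb, the calcium buffer of fast-spiking interneurons, was at 20.9 to 91.0 FPKM and the potassium channel Kcnc1 at 2.67 to 7.65 FPKM. The potassium channel Kcna1 was at 0 to 2.51 FPKM and the synaptotagmin Syt2 at 0 to 6.28 FPKM, with a 3-month difference of 2.82 (SE 1.53, limma adjusted p = 1). Sncg, named after its values were seen, was the list's 1 gene without overlap at 10 months. Of all genes tested, 4.37% were without overlap and higher and 3.89% lower, and other lists here also held such genes. Sncg was low throughout, at 1.98, 1.78 and 2.63 FPKM under the transgenic label and 0, 1.25 and 0 FPKM under the control label (limma adjusted p = 0.969). Among the markers of astrocytes, oligodendrocytes, microglia, endothelial cells, pituitary, choroid plexus, and striatum and thalamus, 0 passed at either age, as for all but 0.0406% and 0.0102% of genes. Their median differences at 3 and 10 months were -0.01 and -0.23 for 6 astrocyte genes, 0.03 and 0.48 for 6 oligodendrocyte genes, -0.12 and 0.05 for 6 microglial genes, and 0.18 and 0.71 for 4 endothelial genes. They were 1.27 and 1.97 for 5 pituitary genes, -0.02 and 1.19 for 2 choroid plexus genes, and 0.37 and 0.68 for 4 genes of striatum and thalamus, beside 0.02 and 0.01 over all genes. At 10 months 6 of 6 oligodendrocyte genes and 5 of 5 pituitary genes had positive differences. Those of the pituitary genes rest on the library labelled TAU58/2 1. The pituitary markers summed to 13469 FPKM there, to 0.930 and 2.66 FPKM in the others labelled TAU58/2, and to 8.08 to 19.4 FPKM under the control label. At 3 months they summed to 53.8 FPKM in TAU58/2 2 and to 0 FPKM in the other TAU58/2 libraries. The 3-month median of the pituitary genes thus also rests on 1 library. The part of cell makeup in the neurofilament levels was not tested.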

How the data were processed

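The authors deposited FPKM of each gene in each library, a table for each age. HISAT2 2.0.4, SAMtools 0.0.19, StringTie 1.3.0, R 3.4.2 and the builds mm10 and GRCm38 are named per the submitters' processing notes. The authors' tables also hold a fold change (ratio), its log2 value, p-values and q-values, by a test not stated per the file headers. Here, log2(FPKM + 0.1) of genes whose mean reached 1 FPKM in some group was fitted with limma 3.58.1 (R 4.3.3; trend and robust) over all 12 libraries, a mean per group, with Benjamini-Hochberg adjustment over 9846 genes and a threshold of 0.05. The pseudocount understates changes of low genes. Single values also had exact permutation tests, and correlations 100000 permutations. Libraries were grouped by the labels. The limma p-values set group differences against the spread between libraries within groups. The fit was tested on simulated data. The members and gene lists were chosen with earlier results of these data known. Genes named were the members, Mapt, Thy1, Nt5c2 and the first 4 of a list. Named too were any list gene past the threshold and the 3 genes nearest each member by r. Sncg was named after its values were seen. Of the other cell types' lists, only Gh and Ttr are named, also chosen after their values were seen. Alternatives were other pseudocounts, filters and scalings, the replicate number as a block, other moderation, library weights, fewer libraries and leaving out each library.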

Additional observations from a re-analysis of the deposited data

How the results depend on the processing

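No neurofilament gene passed the threshold under any alternative run: of 604 member results, 0 had an adjusted p under 0.05 by limma, and the smallest was 0.797 (Nefl at 3 months, from the 6 libraries of that age alone). In 51 of them the direction was reversed, and the cause was not tested. This is not a rate, since many of the 604 could not reverse. The filters, the replicate block, other moderation and the fits to the 6 libraries compared leave each difference as it was. So does leaving out a library of a group that a comparison does not use. Size factors turned the age difference of Nefm to -0.024 in transgenics and -0.044 averaged, quantile normalization to -0.0019 and -0.033, and library weights to -0.031 and -0.043. Library weights also gave -0.12 for Ina at 10 months and -0.034 for the averaged age difference of Nefl. The correlation of Nefm with Ina was 0.66 without the 2 farthest libraries. With each library left out in turn, the 10-month genotype difference ran from -0.12 to 0.38 for Nefl and -0.56 to 0.35 for Nefm, and the 3-month one from -0.23 to 0.073 for Nefm and -0.13 to 0.90 for Nefh. The interaction ran from -0.45 to 0.46 for Nefm and -1.77 to 0.67 for Ina. The age difference in controls ran from -0.43 to 0.48 for Nefm and -1.79 to 0.65 for Ina, and in transgenics from -0.32 to 0.045 for Nefl, -0.031 to 0.16 for Nefm, -0.41 to 0.16 for Nefh and -1.82 to 0.25 for Ina. The averaged genotype difference ran from -0.34 to 0.12 for Nefm and -0.30 to 0.22 for Nefh, with 0.21 to 0.46 for Nefl and 0.83 to 2.20 for Ina, and the averaged age difference from -0.078 to 0.18 for Nefl, -0.20 to 0.26 for Nefm and -0.025 to 0.50 for Nefh, with -1.46 to -0.09 for Ina.

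Counts of all genes past the threshold moved in these cases. In the order 10-month genotype, 3-month genotype, interaction, age in controls, age in transgenics, averaged genotype and averaged age, they were 1, 4, 5, 3, 2, 5 and 8, and with each library left out 0 to 8, 4 to 12, 2 to 11, 3 to 10, 2 to 13, 1 to 10 and 2 to 14. A pseudocount of 0.01 gave 2 for the interaction and 5 for averaged age. No filter gave 2, 9, 9, 7, 7 and 9 for the first 6, and a filter at 5 FPKM gave 0, 2, 1 and 0 for the first 4 and 2 for each averaged comparison. Moderation without trend and robust gave 6 for age in transgenics, and only the 6 libraries compared gave 0 and 14 for genotype at 10 and 3 months and 5 for age in controls. The replicate numbers do not pair the libraries (r from -0.12 to 0.09 over 18 same-numbered pairs, 0 over 0.1). With the replicate number as a block the counts were 0 for genotype at 10 months, 1 for the interaction, 1 for averaged genotype and 2 for averaged age. No member changed side of the threshold. Directions could not change, since each replicate number occurs in every group and the block leaves the differences as they were. Absolute depth is unknown, so no detection limit can be given.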
